A study of Mus musculus with 11 samples.

Results

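The resting heart with Lmnb2 targeted in its cardiomyocytes was described from the 5 libraries, of 11 in the series, whose treatment label is sham surgery. Of these 3 carried the genotype label Lmnb2 KO (Tnnt2-Cre with both Lmnb2 alleles floxed; here KO) and 2 were controls with Tnnt2-Cre (here WT). WT sham 1 was labelled Lmnb2 WT and WT sham 2 only WT. Surgery was done at 10 to 12 weeks of age, and ventricular myocardium was frozen and sequenced in bulk. The other 6 libraries, 3 per genotype, came from mice with constriction of the transverse aorta (TAC), a pressure load on the left ventricle, and entered the fit for the estimate of spread. Both genotypes carry a Cre recombinase driven by the Tnnt2 promoter, which is active in cardiomyocytes, so that Lmnb2 in fibroblasts, endothelium and blood cells is not a target. The floxed exons and the time from surgery to sampling are not given in the sources used here. The numbers in the titles are lower for the KO than for the WT sham libraries, so that anything that follows these numbers cannot be told apart from genotype. The letter that ends the title is F for KO sham 2 and M for the other 4. The title numbers differ between all libraries, but the labels do not say that each library came from a separate mouse. The p-values of the fit therefore measure the spread between libraries of the same group, over all 11.

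Lamin B2 is a B-type lamin, one of the filament proteins that line the inside of the nuclear membrane. Lamins hold the shape of the nucleus, bind chromatin and anchor nuclear pores, through which importins and exportins carry proteins under the control of the small GTPase Ran. The series concerns nuclear pores and the import of signaling proteins in cardiomyocytes. The comparison therefore asks which transcripts differed between the genotypes in hearts that were not under load. These counts do not measure lamin B2 protein.

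The tissue labels were checked first. Tnnt2, the gene of cardiac troponin T, stood at 7943 and 7844 CPM (counts scaled to library size by TMM) in the WT libraries and at 8138, 7799 and 7314 CPM in the KO libraries, given here and below in the order of their numbers. Of 9 thymus markers 4 had 0 counts in all 5 sham libraries, and the summed level of the list was 3.39 to 3.81 CPM in WT and 1.88 to 3.89 CPM in KO. Total counts ran from 14914283 to 17333227 per sham library. Mitochondrially encoded transcripts made up 41.1% ± 11.7 (SD, n = 2) of the WT and 41.2% ± 4.44 (n = 3) of the KO counts, and messenger RNAs of ribosomal proteins 1.08% ± 0.611 and 1.36% ± 0.412. These shares overlapped between the genotypes.

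No gene passed the test between KO and WT after sham surgery. edgeR called 0 of 14619 genes (0%) at an adjusted p under 0.05, and its smallest adjusted p was 0.370. At an unadjusted p under 0.05 there were 185 genes (1.27%), 88 higher in KO (0.602% of those tested) and 97 lower (0.664%). Without any difference a calibrated test would put a share of 0.05 of the genes there, so that these p-values ran conservative. The same fit put 930 genes (6.36%) there after TAC. Few small p-values after sham, here and in the lists below, therefore do not show that the genotypes were alike. DESeq2 called 3 genes, and edgeR on the 5 sham libraries alone called 4. Limma-voom called 0, as did edgeR with any 1 of the 11 libraries left out. In 994 genes (6.8%) each KO library was higher than each WT library, and in 1238 (8.47%) each was lower.

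Differences between libraries of 1 genotype covered much the same range as those between genotypes. Over 12223 genes whose mean reached 1 CPM, the median absolute log2 difference was 0.35 between WT sham 1 and 2 and 0.29 to 0.41 between pairs of KO libraries. Between a KO and a WT library it ran from 0.23 (KO sham 3 and WT sham 1) to 0.42 (KO sham 1 and WT sham 2). The WT pair differed by over 2-fold in 1053 genes and the 6 mixed pairs in 536 to 1853.

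How closely the difference was measured depended on the level of the gene. The 95% interval of the difference lay within 2-fold in either direction for 5224 genes (35.8%). This held for 61.4% of the 6211 genes at 10 to 100 CPM, for 15.7% of the 4964 genes at 1 to 10 CPM, and for 1 of the 2396 genes under 1 CPM. At 100 CPM or more it held for 60.0% of 1048 genes. The estimate itself was under 0.5 on the log2 scale in 80.8% of genes. A plot of the difference against the level shows the spread narrowing up to about 10 to 100 CPM.

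**Figure D1:**
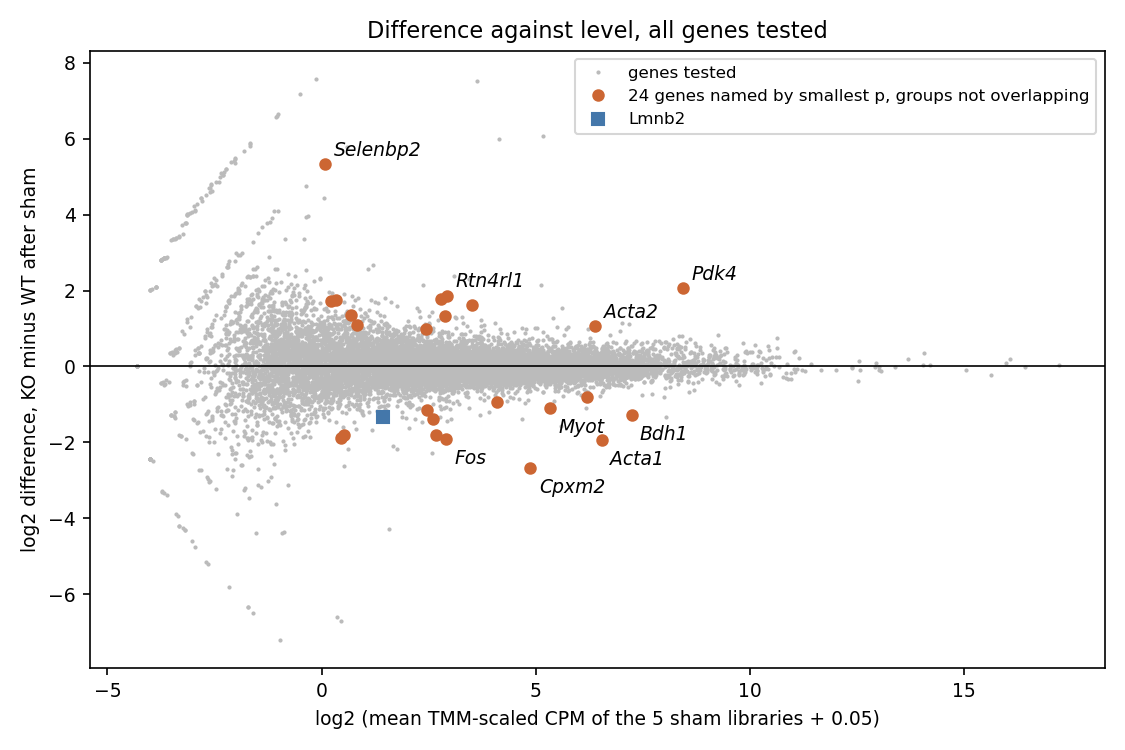
Log2 difference between KO and WT after sham surgery (y axis) against the log2 mean level in the 5 sham libraries (x axis, TMM-scaled CPM plus 0.05) for the 14619 genes tested (grey). Orange points are the 24 protein-coding genes with the smallest p per direction under the naming rule (at least 1 CPM, groups not overlapping). The blue square is Lmnb2. None passed the adjusted threshold.

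Lmnb2 (ENSMUSG00000062075), the targeted gene on the minus strand of chromosome 10 (GRCm38, 80901203 to 80918245), did not overlap between the genotypes. Its level was 4.44 and 3.86 CPM in the WT libraries against 0.649, 1.81 and 2.43 CPM in the KO libraries. KO sham 1 was the lowest, and each KO library was below both WT libraries. The log2 difference was -1.33 ± 0.64 (standard error; 95% interval -2.71 to 0.06; edgeR adjusted p = 1), and leaving out 1 library moved it from -1.71 (without KO sham 3) to -0.97 (without KO sham 1). An exact 2-sided permutation of the genotype labels over the 5 libraries gave p = 0.2, and the smallest p that its 10 arrangements allow is 0.1. Reads over all exons and all cells of the tissue enter this count. In bulk samples fewer cells of a type and less RNA per cell cannot be told apart.

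The libraries labelled KO after TAC did not show this difference. There the log2 difference of Lmnb2 was 0.57 ± 0.55 (edgeR adjusted p = 0.792), and the test of the difference between the 2 surgeries gave an unadjusted p of 0.0439 and an adjusted p of 0.992. Values after TAC are therefore given below for the libraries labelled KO.

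Lmna, the gene of lamins A and C, and Lmnb1, the gene of the other B-type lamin, did not separate the genotypes. Lmna measured 62.0 and 45.6 CPM in WT and 40.1, 51.0 and 56.2 CPM in KO, a log2 difference of -0.13 ± 0.28 (95% interval -0.74 to 0.48). Lmnb1 measured 2.25 and 2.60 CPM in WT and 4.08, 2.05 and 1.67 CPM in KO (0.09 ± 0.66; 95% interval -1.34 to 1.51), with KO sham 1 highest. Per kilobase of exon, Lmna stood at 9.21 ± 1.98 CPM (SD, n = 2) in WT, against 0.968 ± 0.0959 for Lmnb2 and 0.818 ± 0.0829 for Lmnb1. In KO the same levels were 8.41 ± 1.41, 0.380 ± 0.211 and 0.877 ± 0.437 (n = 3).

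**Figure D2:**
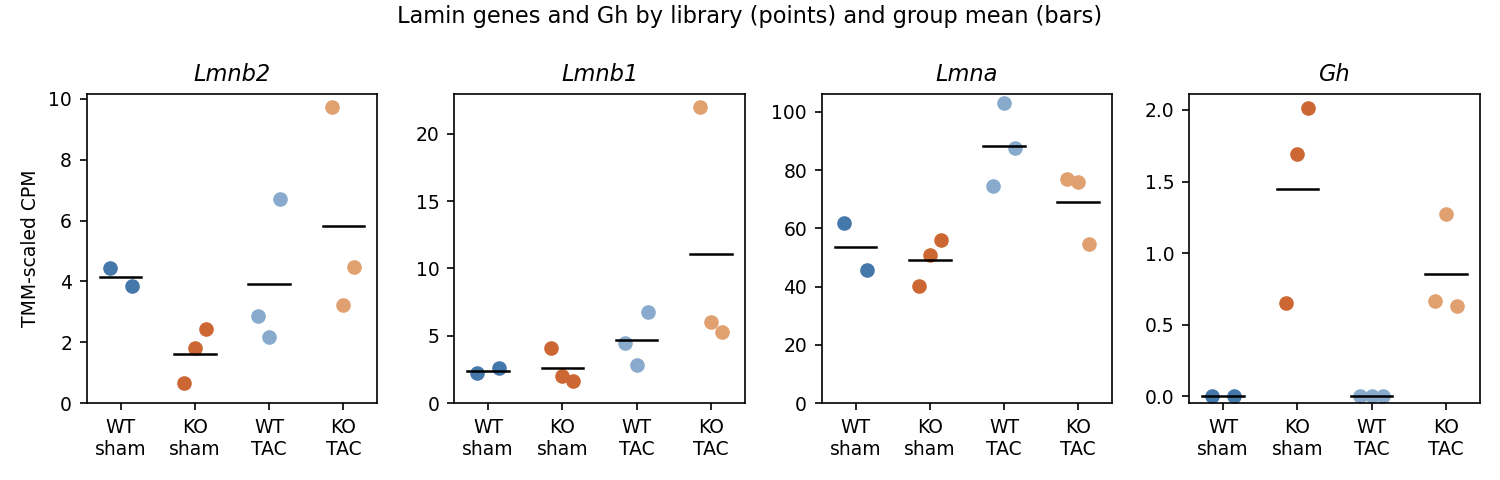
TMM-scaled CPM of Lmnb2, Lmnb1, Lmna and Gh (y axes, linear) in each library (points) of the 4 groups (x axis), with group means as bars. After sham the 3 KO libraries lie below both WT libraries for Lmnb2, overlap with them for Lmnb1 and Lmna, and Gh is at 0 in the 5 WT libraries.

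Gh, which encodes pituitary growth hormone, was counted in each KO and in no WT library. It had 0 counts in both WT libraries against 7, 28 and 29 in the KO libraries, at least 14.7-fold higher against a floor of 3 counts over the WT group (edgeR unadjusted p = 0.000785; adjusted p = 1). Of the other 9 pituitary genes listed 7 had 0 counts in the 5 sham libraries, among them Prl (prolactin), Lhb and Cga. Pomc, the precursor of corticotropin, had 3 and 2 counts in WT and 1, 1 and 0 in KO. Nr1h4, the gene of the bile acid receptor FXR, was the other tested gene with 0 counts in 1 group and at least 5 in each library of the other. It had 6 and 13 counts in WT and 0 in KO (at least 9.22-fold lower in KO). After TAC Nr1h4 had 6, 13 and 5 counts in WT and 9, 24 and 0 in the libraries labelled KO. It lies on chromosome 10 (89454234 to 89533585), outside the 1 Mb around Lmnb2 read below.

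No called gene and no shift of the median past 0.3 was seen among the genes of the nuclear envelope, pore and transport. Of 23 tested partners of the lamina 0 had an unadjusted p under 0.05, and the median log2 difference was 0.02, as over all genes (0.02). The 95% interval lay within 2-fold for 17 of the 23. Lemd2, which encodes a LEM domain protein of the inner nuclear membrane, had the smallest p, at 16.4 and 13.2 CPM in WT and 21.5, 20.2 and 17.2 CPM in KO (0.40 ± 0.35). Ankle2, a LEM protein that acts in reassembly of the envelope after mitosis, followed at -0.26 ± 0.30 with overlapping groups.

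Among 29 nuclear pore genes 0 had an unadjusted p under 0.05, the median was -0.14, and 14 had an interval within 2-fold. Nup93, a scaffold nucleoporin of the inner ring, measured 13.9 and 17.6 CPM in WT and 10.2, 13.9 and 10.9 CPM in KO (-0.43 ± 0.27). KO sham 2 and WT sham 1 were nearly level for Nup93. Nup155, of the same ring, was at -0.39 ± 0.34 and overlapped. In 3 of the 29 each KO library was below each WT library, and in 0 above, against 8.47% and 6.8% of all genes.

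Of 31 importins, exportins and Ran cycle genes 0 had an unadjusted p under 0.05, with a median of -0.14, and 22 had an interval within 2-fold. Kpna3, an importin alpha that binds the import signal of cargo, measured 101.03 and 134 CPM in WT and 93.8, 90.3 and 95.8 CPM in KO (-0.33 ± 0.26). Kpna1, another importin alpha, was at -0.28 ± 0.25 with all KO libraries lower. The KO libraries were lower without overlap in 6 of the 31 and higher in 1, against the same shares of all genes, 8.47% and 6.8%.

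Cpxm2 had the smallest p of the named genes. It encodes a secreted member of the carboxypeptidase family (ENSMUSG00000030862; chromosome 7, 132032687 to 132154739, minus strand) and measured 68.8 and 50.4 CPM in WT and 6.67, 7.78 and 13.3 CPM in KO. Each KO library lay far below both WT libraries. The log2 difference was -2.68 ± 0.51 (edgeR unadjusted p = 0.000170; adjusted p = 1), and it stayed between -3.04 and -2.44 with 1 library left out. DESeq2 called Cpxm2 (adjusted p = 0.00328), and edgeR called it on the 5 sham libraries alone (adjusted p = 0.0313). After TAC it measured 5.36 to 22.0 CPM in WT and 11.9 to 18.7 CPM in the libraries labelled KO, and these ranges overlapped.

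The noncoding transcript 2610507I01Rik (chromosome 11, 59199836 to 59202385, minus strand) had the smallest p of all. It measured 7.06 and 6.53 CPM in WT and 0.0927, 0.543 and 0.347 CPM in KO, a log2 difference of -4.27 ± 0.66 (edgeR adjusted p = 0.370). DESeq2 called it (adjusted p = 1.09e-05), as did edgeR on the sham libraries alone (adjusted p = 0.0389). After TAC its difference was in the other direction, at 1.14 ± 0.53.

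Acta1, the skeletal actin that the fetal and the loaded heart express, measured 169 and 167 CPM in WT and 24.6, 67.9 and 39.2 CPM in KO. The WT libraries were level and each KO library was below them (-1.94 ± 0.53; edgeR unadjusted p = 0.00298; adjusted p = 1). In 4 of the 24 tested hypertrophy and fetal genes, Acta1 among them, each KO library was lower than each WT library, and in 0 higher, against 8.47% and 6.8% of all genes. Nppa and Nppb, which encode the natriuretic peptides that stretched cardiac muscle releases, differed by 0.05 ± 0.79 and 0.09 ± 0.80, both in either direction depending on the library left out. Nppb ran from 92.3 to 223 CPM in WT and from 93.6 to 222 CPM in KO. Myh6, the adult cardiac myosin, was at -0.01 ± 0.64 and Myh7, the fetal one, at -0.55 ± 0.94. Nmrk2, a kinase of NAD synthesis that lies 279925 bp from Lmnb2, also did not overlap and measured 4.50 and 9.21 CPM in WT and 2.87, 2.23 and 4.31 CPM in KO (-1.12 ± 0.54). Of the 24 genes 1, Acta1, had an unadjusted p under 0.05 (median -0.10).

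Sarcomere, calcium and channel genes had medians within 0.10 of 0, with single genes further out. In the sarcomere and Z-disc list 1 of 25 genes, Myot, had an unadjusted p under 0.05, the median was -0.10, and 12 had an interval within 2-fold. Myot encodes myotilin, a Z-disc protein, and measured 55.3 and 63.1 CPM in WT and 23.2, 31.1 and 29.2 CPM in KO (-1.09 ± 0.35; edgeR unadjusted p = 0.00929; adjusted p = 1), with a narrow spread in both groups. Myom2, of the M-band, was at -0.45 ± 0.41. Of 21 calcium handling genes 0 had an unadjusted p under 0.05 (median -0.02), and 16 had an interval within 2-fold. Cacnb2, a subunit of the calcium channel, and Slc8a1, the sodium calcium exchanger, were at -0.26 ± 0.25 and -0.30 ± 0.30. Kcnj2, the channel of the inward rectifier current, measured 62.0 and 72.0 CPM in WT and 36.7, 29.1 and 51.5 CPM in KO (-0.78 ± 0.34). It was the 1 of 25 potassium, sodium and pacemaker channel genes with an unadjusted p under 0.05 (median 0.02), and 8 of them had an interval within 2-fold. Kcnv2, a modifier of potassium channels, was at 0.70 ± 0.41.

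**Figure D3:**
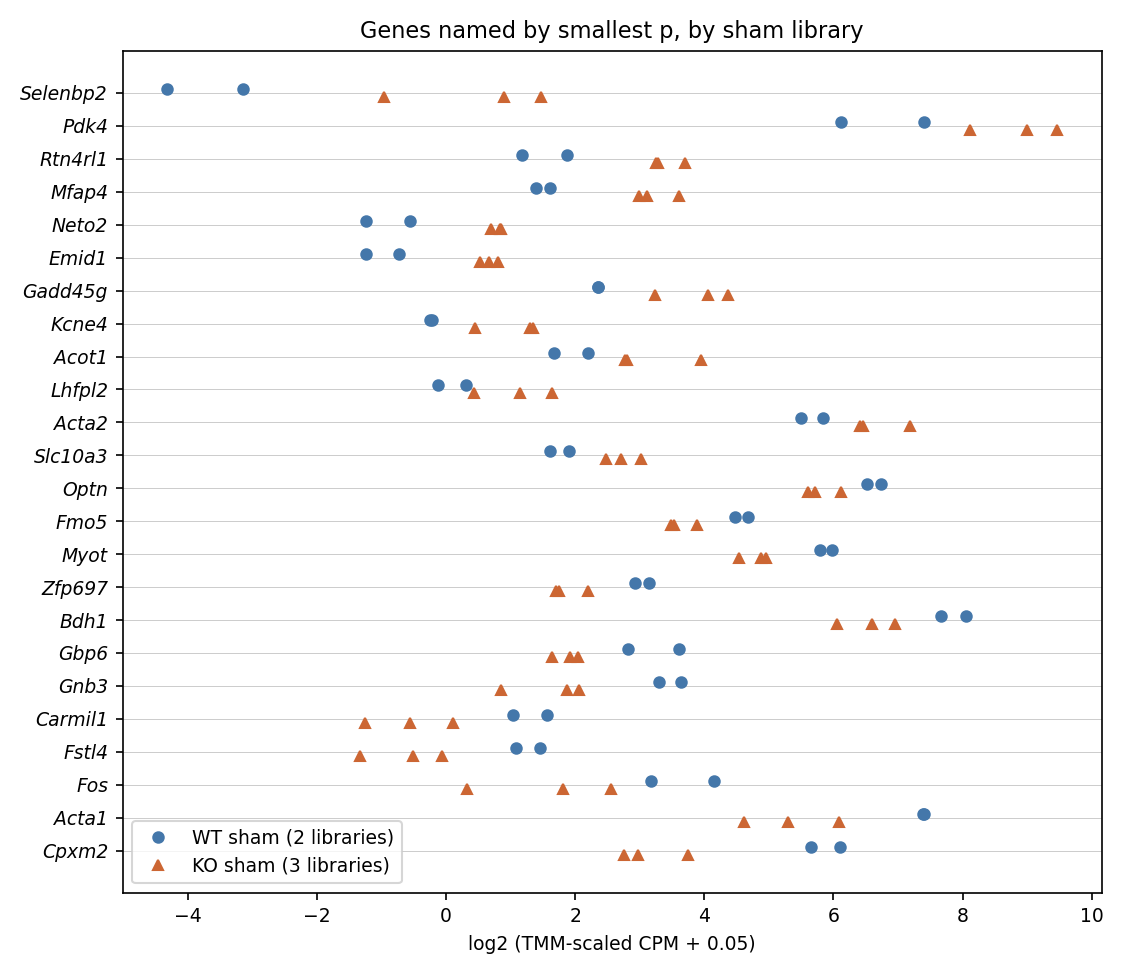
Log2 level (x axis, TMM-scaled CPM plus 0.05) in each of the 2 WT (circles) and 3 KO (triangles) sham libraries. The y axis holds the 24 protein-coding genes with the smallest p per direction under the naming rule. The groups were required not to overlap. Cpxm2 lies at 50.4 CPM or more in WT and 13.3 CPM or less in KO.

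Fuel genes held both higher and lower members. Pdk4, the kinase that shuts pyruvate out of the tricarboxylic acid cycle, measured 69.5 and 169 CPM in WT and 277, 510 and 708 CPM in KO. All KO libraries were higher, though both groups were wide (2.06 ± 0.60; edgeR unadjusted p = 0.00493; adjusted p = 1). Acot1, a thioesterase of fatty acyl-CoA with close copies in the genome, measured 4.56 and 3.15 CPM in WT and 6.76, 6.94 and 15.4 CPM in KO (1.32 ± 0.50). Angptl4, an inhibitor of lipoprotein lipase, was at 2.31 ± 0.92 and rested on KO sham 3, with 35.5 CPM against 9.45 CPM or less in the other 4. Without KO sham 3 its difference was 0.92. Of 38 genes of fatty acid uptake and oxidation 4 were higher at an unadjusted p under 0.05, these among them, and 0 were lower, with a median of 0.09. The shares of all genes were 0.602% and 0.664%. Without overlap 5 of the 38 were higher and 2 lower, against 6.8% and 8.47% of all genes.

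Bdh1, which oxidises the ketone body 3-hydroxybutyrate in mitochondria, went the other way. It measured 266 and 204 CPM in WT and 66.8, 96.3 and 124 CPM in KO (-1.29 ± 0.32; edgeR unadjusted p = 0.00141; adjusted p = 1), without overlap. In the tricarboxylic acid and branched chain amino acid list 0 of 33 genes had an unadjusted p under 0.05, the median was -0.15, and 30 had an interval within 2-fold. Here 12 of the 33 were lower in each KO library and 0 were higher, against 8.47% and 6.8% of all genes. Dbt, a subunit of the branched chain ketoacid dehydrogenase, measured 109 and 118 CPM in WT and 86.1, 84.4 and 82.7 CPM in KO (-0.43 ± 0.26). Ppm1k, the phosphatase that activates this complex, was at -0.39 ± 0.34. Among 29 glycolysis genes 1 had an unadjusted p under 0.05, the lactate carrier Slc16a3, at 1.25 and 1.5 CPM in WT and 0.556, 0.543 and 0.556 CPM in KO (-1.30 ± 0.49). Pgam1, a glycolytic mutase, was at -0.56 ± 0.28.

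The 53 nuclear genes of the respiratory chain and ATP synthase had a median of 0.21, with 0 at an unadjusted p under 0.05. Cox6c and Cox7a1, subunits of complex IV, were at 0.57 ± 0.58 and 0.75 ± 0.80. Cox7a1 ran from 562 to 1705 CPM in WT and from 764 to 2689 CPM in KO, so that its spread within each genotype was wider than the gap. The 81 ribosomal protein genes had a median of 0.43 (0 at an unadjusted p under 0.05), and their summed level was lowest in WT sham 2 and highest in KO sham 1. In a fit with this share as a covariate edgeR called 0 genes.

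Immediate early genes, which cells switch on within minutes of a signal through kinases such as ERK, included 3 lower members. Fos, a subunit of the AP-1 factor, measured 9.0 and 17.7 CPM in WT and 1.2, 5.85 and 3.47 CPM in KO (-1.91 ± 0.58; edgeR unadjusted p = 0.00626; adjusted p = 1). Junb, its partner, measured 18.8 and 13.2 CPM in WT and 5.37, 7.06 and 9.86 CPM in KO (-1.11 ± 0.43). Btg2, an antiproliferative gene, was at -0.90 ± 0.36, also without overlap. These were 3 of 24 genes at an unadjusted p under 0.05 with 0 higher ones, against 0.664% and 0.602% of all genes. Without overlap 6 of the 24 were lower and 1 higher, against 8.47% and 6.8% of all genes. The list's median was -0.07. In the ERK list Phlda1, which growth factor signals induce, measured 11.4 and 9.84 CPM in WT and 4.91, 6.64 and 3.27 CPM in KO (-1.10 ± 0.42). It was the 1 of 23 with an unadjusted p under 0.05, and the median was 0.00. Egr1, an early transcription factor, was at -1.38 ± 0.72, with 60.0 CPM in WT sham 2 against 22.2 CPM or less in the other 4.

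Chaperones and p53 targets were measured as signs of stress. Of 28 heat shock and oxidative stress genes 0 had an unadjusted p under 0.05, the median was -0.16, and 8 were lower in each KO library, against 8.47% of all genes. Dnajb1, a co-chaperone that heat shock induces, measured 13.9 and 13.1 CPM in WT and 6.67, 9.05 and 9.66 CPM in KO (-0.67 ± 0.34). Hsph1, a large heat shock protein, was at -0.68 ± 0.44. Cdkn1a, the p53 target that blocks the cell cycle, was the 1 of 23 p53 targets with an unadjusted p under 0.05 (1.07 ± 0.48). It measured 8.25 and 7.56 CPM in WT and 6.39, 22.9 and 20.4 CPM in KO, and KO sham 1 lay below both WT libraries. Among 22 sterol synthesis genes 0 had such a p, with Dhcr7 at 0.87 ± 0.42 and Idi1 at -1.28 ± 0.65.

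The cell cycle genes with the smallest p were near the floor of detection. Ccnb1, cyclin B, had 0 counts in WT and 10 over the 3 KO libraries, at least 2.29-fold higher, and Cenpe, a kinetochore motor, had 0 and 11, at least 2.52-fold higher. Anln, a protein of cytokinesis, measured 0.75 and 0.394 CPM in WT and 1.58, 1.99 and 1.25 CPM in KO (1.46 ± 0.63). These 3 of 40 genes had an unadjusted p under 0.05 and 0 were lower, against 0.602% higher and 0.664% lower of all genes. Without overlap 7 of the 40 were higher and 2 lower, against 6.8% and 8.47% of all genes. The median was 0.12 (0.11 with genes at 0 in 1 group set to their bound).

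Matrix and stromal genes had medians above that of all genes. Sparc, a collagen-binding protein that many stromal cells secrete, measured 271 and 179 CPM in WT and 449, 346 and 388 CPM in KO (0.81 ± 0.32; edgeR unadjusted p = 0.0273; adjusted p = 1). Fmod, a small proteoglycan, had 1 count in WT and 32 in KO (ratio 22.0, 95% counting interval 3.67 to 895), of which KO sham 2 held most. Of 38 collagen and matrix genes these 2 had an unadjusted p under 0.05, against 0.602% higher of all genes, and the median was 0.29. Without overlap 7 of the 38 were higher and 1 lower, against 6.8% and 8.47% of all genes. Mfap4, a microfibril protein, measured 2.56 and 2.99 CPM in WT and 8.62, 12.1 and 7.85 CPM in KO (1.78 ± 0.47). It was the 1 of 18 fibroblast markers with such a p (median 0.27), followed by Meox1, a homeobox gene, at 0.75 ± 0.39. Acta2, smooth muscle actin, measured 57.3 and 45.1 CPM in WT and 87.6, 85.1 and 146 CPM in KO (1.05 ± 0.39), as the 1 of 16 pericyte and smooth muscle markers (median 0.28). Myh11, the smooth muscle myosin, was at 0.62 ± 0.43.

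Markers of other cell types were summed in each library. Summed fibroblast markers measured 1552 and 1583 CPM in WT and 2049, 2086 and 1918 CPM in KO, without overlap. Endothelial markers ran from 1480 to 1896 CPM in WT and from 1900.1 to 2645 CPM in KO, so that the nearest libraries were level, with 0 of 20 genes at an unadjusted p under 0.05 and a median of 0.22. Epicardial markers were few and low, with Aldh1a2, a retinoic acid enzyme, at 0.80 ± 0.48 and Tbx18 at 0.35 ± 0.38. Their sum was 7.13 and 9.05 CPM in WT and 13.3, 13.3 and 10.1 CPM in KO, without overlap. Summed Schwann cell and neuron markers, also low, measured 24.6 and 20.4 CPM in WT and 28.6, 28.6 and 26.5 CPM in KO, without overlap. Of the tested fibroblast, epicardial, and Schwann cell and neuron markers 5 of 18, 3 of 5 and 0 of 8 were higher without overlap. In each of these lists 0 were lower, and over all genes the shares were 6.8% higher and 8.47% lower. Whether the sums differed was not tested. Pericyte and smooth muscle markers ran from 1887 to 2417 CPM in WT and from 2186 to 2499 CPM in KO, and lymphocyte markers from 58.6 to 61.6 CPM and from 57.0 to 74.9 CPM. Fat cell markers ran from 20.2 to 25.3 CPM in WT and from 18.4 to 31.8 CPM in KO, and macrophage markers from 313 to 454 CPM and from 312 to 552 CPM. These 4 sums overlapped between the genotypes. Macrophage markers had a median of 0.13, with 1 of 23 at such a p, Ly6c2, which had 16 counts in WT and 2 in KO. The part of cell make-up in the matrix values was not tested.

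Neutrophil and mast cell markers had the lowest median of the lists with at least 10 tested genes, at -1.86 over 12 genes. It rested on WT sham 2, whose summed level was 38.3 CPM against 8.32 CPM in WT sham 1 and 6.58 to 10.8 CPM in KO. Ngp and Ltf, which encode granule proteins of neutrophils, had all their WT counts (77 and 29) in WT sham 2. Cxcr2, a chemokine receptor, had 18 counts in WT and 1 in KO, and Retnlg, a resistin-like protein, 32 and 2 (ratio of WT to KO 23.3, 95% counting interval 5.94 to 201). Without WT sham 2 the list's median was 0.07, on the 5 sham libraries alone it was -0.79, and without KO TAC 3, the TAC library highest for Ngp and Ltf, it was 0.17. Ngp measured 6.06 CPM in WT sham 2, 6.81 CPM in KO TAC 3 and at most 0.526 CPM elsewhere. It passed the low count filter through these libraries, as did Ltf at 2.28 and 3.95 CPM. The filter ran anew when libraries were left out, and Ngp, Ltf and Cxcr2 were tested in 19 of the 21 settings. These medians therefore cover differing members and do not measure a shift of the whole list. Of the other 26 lists of that size, which leave ribosomal protein genes aside, each had a median within 0.3 of 0. Interferon response genes had the highest, at 0.30, with Ifit3, an antiviral protein, at 0.86 ± 0.37 and Xaf1 at 0.86 ± 0.41.

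**Figure D4:**
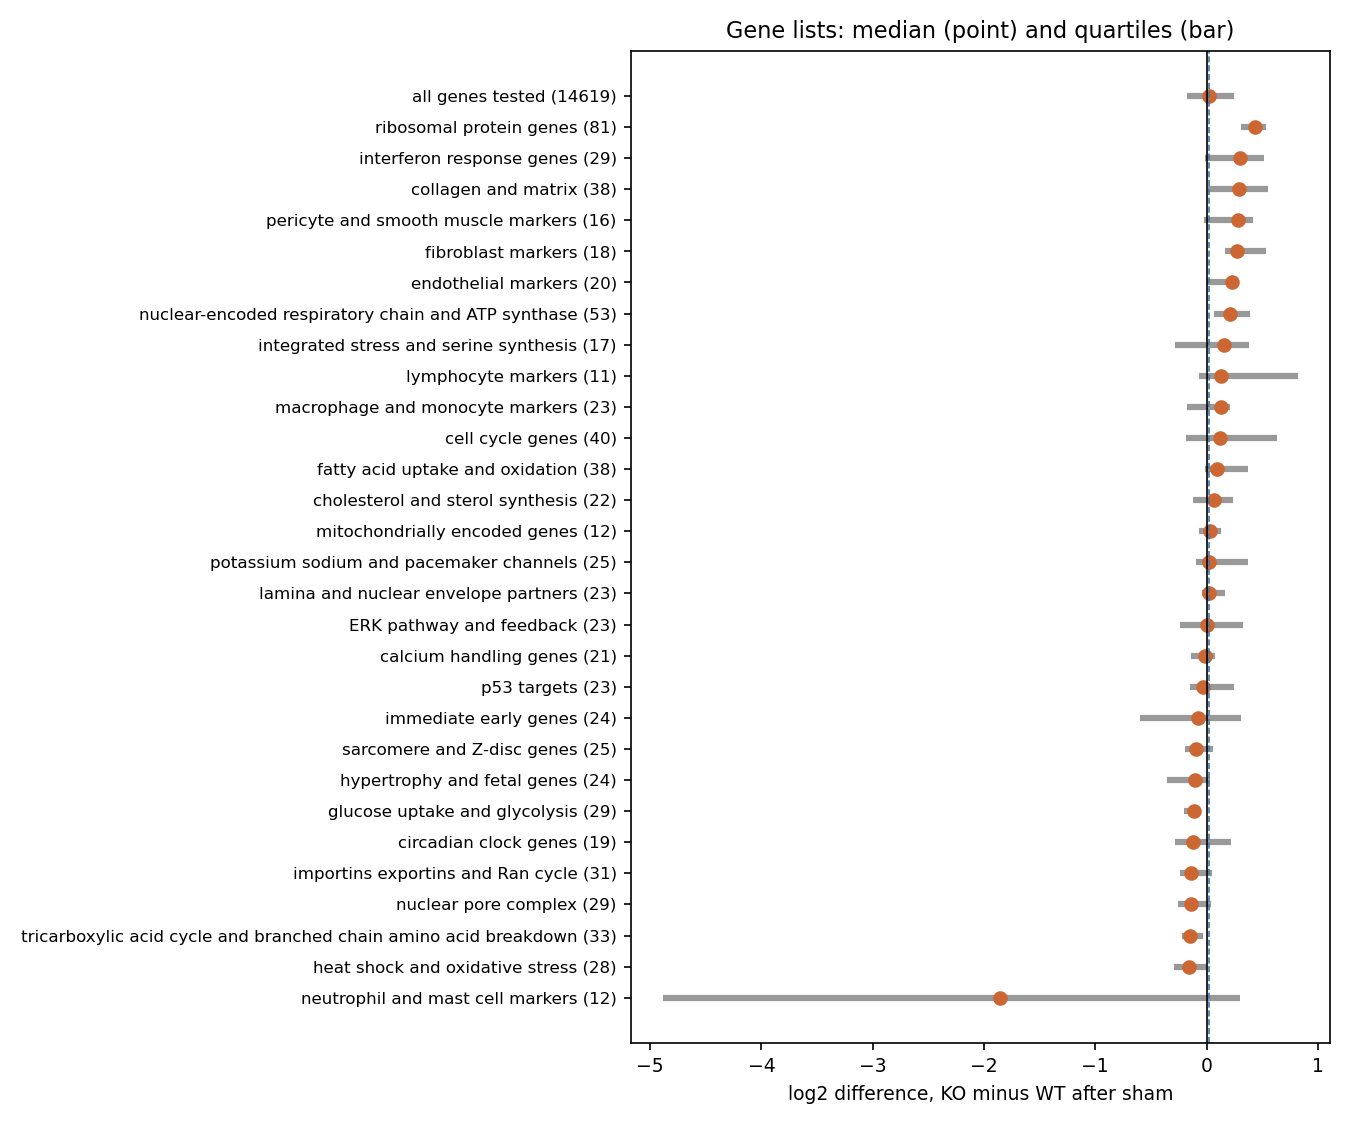
Median (points) and quartiles (bars) of the log2 difference between KO and WT after sham surgery (x axis) for gene lists with at least 10 tested genes and for all genes (y axis, number tested in brackets). Apart from neutrophil and mast cell markers and ribosomal protein genes, the medians lie within 0.3 of 0.

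Among the remaining genes higher in each KO library, Rtn4rl1, a homolog of the Nogo receptor, measured 3.63 and 2.20 CPM in WT and 13, 9.65 and 9.52 CPM in KO (1.87 ± 0.41; edgeR unadjusted p = 0.000561; adjusted p = 1). DESeq2 called it (adjusted p = 0.0405). Gadd45g, a stress-induced regulator of growth arrest, measured 5.06 and 5.04 CPM in WT and 20.7, 16.5 and 9.38 CPM in KO (1.62 ± 0.53). Kcne4, a subunit that inhibits potassium channels, was at 1.36 ± 0.49. Emid1 and Neto2 lay between 0.375 and 0.630 CPM in WT and between 1.39 and 1.75 CPM in KO. Slc10a3 and Lhfpl2 were at 0.99 ± 0.37 and 1.09 ± 0.41. Selenbp2, which has a near-identical copy in the genome, had 1 count in WT and 76 in KO (ratio 52.2, 95% counting interval 9.10 to 2090). Mylpf, a myosin light chain of fast skeletal muscle, had 1 and 1 counts in WT and 14, 17 and 19 in KO (ratio 17.2, 95% counting interval 4.51 to 146). It was the 1 of 7 tested skeletal muscle markers with an unadjusted p under 0.05, and the summed level of that list was 884 to 1564 CPM in WT and 1043 to 1287 CPM in KO.

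Among the remaining lower genes, Optn, an autophagy receptor, measured 91.3 and 106 CPM in WT and 52.5, 48.5 and 69.6 CPM in KO (-0.80 ± 0.26; edgeR unadjusted p = 0.0101; adjusted p = 1). Fmo5, a flavin monooxygenase, measured 22.3 and 25.6 CPM in WT and 11.5, 14.7 and 11.1 CPM in KO (-0.94 ± 0.31). Zfp697, a zinc finger gene, was at -1.16 ± 0.31 and Gbp6, an interferon-induced GTPase, at -1.40 ± 0.41. Gnb3, a G protein subunit, was at -1.80 ± 0.58. Fstl4, a follistatin-like protein, and Carmil1, a regulator of actin capping, were at -1.88 ± 0.51 and -1.82 ± 0.51 and did not exceed 1.03 CPM in KO.

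Genes around the targeted locus were measured because a floxed allele is inherited with its neighbours. Within 1 Mb of Lmnb2 on chromosome 10 there were 90 tested genes, of which 0 had an unadjusted p under 0.05. Their median was 0.12, and 31 had an interval within 2-fold. Each KO library was higher than each WT library in 6 and lower in 2, against 6.8% and 8.47% of all genes. Nmrk2, described above at -1.12 ± 0.54, had the smallest p of the 90 (unadjusted p = 0.0573). Gadd45b, 11828 bp from Lmnb2, measured 6.63 and 6.38 CPM in WT and 10.8, 15.2 and 6.67 CPM in KO (0.75 ± 0.40). In the libraries labelled KO after TAC, Nmrk2 was again lower, at -1.27 ± 0.46. There Gadd45b was lower too, opposite to its direction after sham, at -1.07 ± 0.36 (edgeR adjusted p = 0.747 for both genes).

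The 24 protein-coding genes with the smallest p after sham under the naming rule (at least 1 CPM, groups not overlapping) were then read in the TAC libraries. The levels of these libraries do not enter the sham difference, but their spread enters its p. Of the 12 higher genes 7 were also higher in the libraries labelled KO after TAC, and of the 12 lower genes 9 were also lower. The sign was the same in 47.1% of all genes and in 50.3% of the 2232 genes whose sham groups did not overlap. At an unadjusted p under 0.05 after TAC there was 1 of the 24 (6.36% of all genes), Zfp697, at -0.67 ± 0.27. Cpxm2, Bdh1, Acta1, Fos and Pdk4 were at -0.17 ± 0.45, -0.06 ± 0.29, 0.08 ± 0.47, 0.06 ± 0.54 and -0.06 ± 0.50. Gh had 0 counts in the 3 WT TAC libraries and 14, 22 and 11 in those labelled KO. Of 14619 genes 0 (0%) passed the edgeR test of a difference between the 2 surgeries, with 434 (2.97%) at an unadjusted p under 0.05, and DESeq2 called 2.

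**Figure D5:**
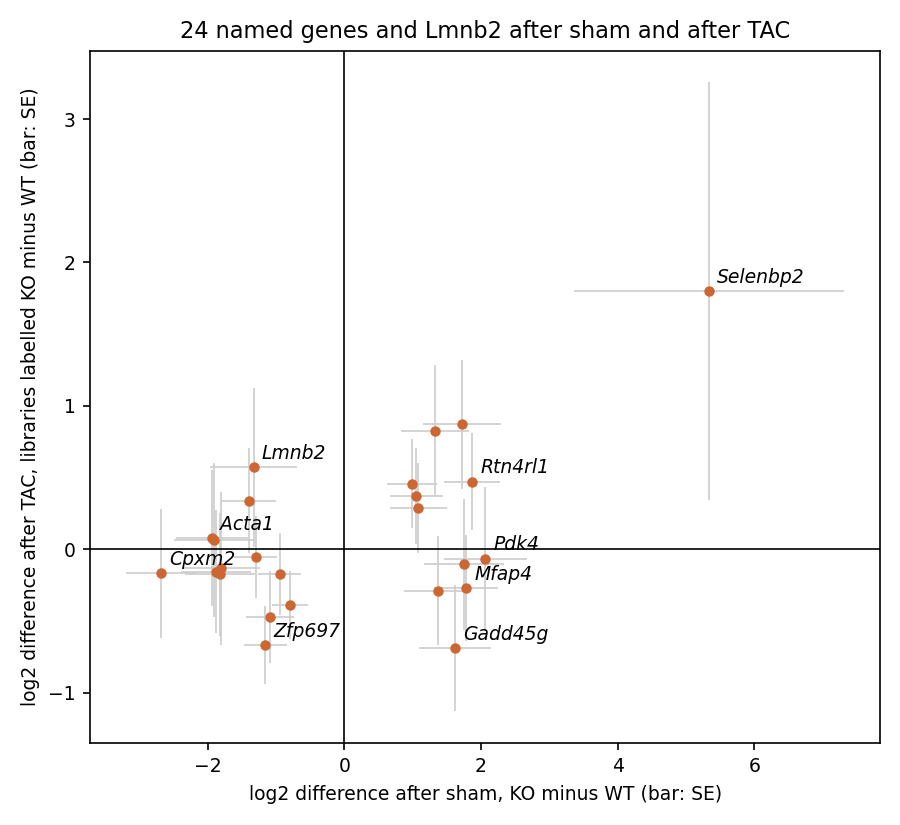
Log2 difference between KO and WT after sham (x axis) and after TAC (y axis), with standard errors as bars. Points are the 24 protein-coding genes with the smallest p after sham under the naming rule, and Lmnb2. The genes were chosen on the x axis, and on the y axis Cpxm2, Acta1 and Pdk4 lie near 0.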

How the data were processed

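RNA of ventricular myocardium was sequenced in 11 libraries, per the labels' protocols, and the 5 libraries taken after sham surgery were compared here. The authors deposited unnormalized read counts by Ensembl identifier, and 0 sample columns were left out. STAR 2.5.1, featureCounts, DESeq2 and build GRCm38 are named in the submitters' processing notes. Strand, annotation version and the handling of multiply aligned reads are not given in the sources used here. Symbols and positions came from GENCODE M21 (GRCm38), which matched 46005 of 46517 gene identifiers and left 512 unmatched.

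The test was edgeR 4.0.16 under R 4.3.3. After filterByExpr, which left 14619 genes, and TMM scaling, a model with 1 mean for each group was fitted over 11 libraries by glmQLFit and glmQLFTest (7 residual degrees of freedom), so that the TAC libraries add to the estimate of spread. Tests were 2-sided with Benjamini-Hochberg adjustment over the genes tested and a threshold of 0.05. Standard errors are the log2 difference divided by the square root of F, and 95% intervals follow from them. Where a group held 0 counts, a fold is given as a bound against a floor of 3 counts over that group, and with 1 to 3 counts as a ratio with its counting interval; both cover counting error only. In a sham library 3 counts correspond to 0.181 to 0.278 CPM. The fits were tested on simulated data. Alternatives included DESeq2 1.42.0, limma-voom (limma 3.58.1), other scalings, no filter, the sham libraries alone, covariates and each library left out.

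The comparison and the 37 gene lists were chosen with earlier results of these data known. Named genes are the 3 lamin genes, 5 genes of the hypertrophic response and, for each list, its 2 members of smallest p. They also include genes with 0 counts in 1 group and at least 5 in each library of the other. A further part is the 12 genes per direction with the smallest p. These are protein-coding, with a sham mean of at least 1 CPM and groups that do not overlap. Y-linked genes, Xist, Tsix, predicted, ribosomal protein and mitochondrially encoded genes were left out of that part. Other X-linked genes stayed in, such as Slc10a3. Genes of the lists beyond the first 2 (Btg2, Anln, Angptl4, Ngp and Ltf), 2610507I01Rik, Gadd45b, Gm6969 and Gm8615 were chosen for naming once their values were known. Part of what the rule selects is given as counts, and some genes are not reported here.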

Additional observations from a re-analysis of the deposited data

How the results depend on the processing

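The edgeR count of 0 genes after sham held with library totals or DESeq2 size factors in place of TMM, with limma-voom, with the title letter or the ribosomal protein share as a covariate, and without mitochondrial and ribosomal protein genes (118 to 296 genes at an unadjusted p under 0.05). It ran from 0 to 0 with each of the 11 libraries left out, where a lone WT library is assumed to vary like the other groups. The count was 3 with DESeq2, 20 with no low count filter, 4 with the 5 sham libraries only, and 2 without WT TAC 3 and KO TAC 1, chosen after seeing the data. The interaction count was 2 with DESeq2, 80 with no filter and 1 without WT TAC 3 and KO TAC 1. 2610507I01Rik passed in 4 of these settings, Cpxm2 and Gm6969 in 3; the cause was not tested. The Lmnb2 difference ran from -1.71 to -0.97 with 1 library left out and kept its direction in the 21 settings.

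Of 82 other genes described 75 kept their direction in every setting run and 7 did not. With 1 library left out, Lmnb1 ran from -0.38 to 0.32, Lmna from -0.34 to 0.11, Nppa from -0.44 to 0.80, Nppb from -0.42 to 0.86, Myh6 from -0.33 to 0.26, Ngp from -8.62 to 2.04 and Ltf from -8.22 to 0, the last 2 at their upper end without WT sham 2. Lmnb1 was at -0.0534 with limma-voom, and Nppb at -0.0104 with library totals and -0.0501 with the ribosomal protein share. Nppa was at -0.0462 and Myh6 at 0.22 with the title letter, and Myh6 at 0.0261 with the ribosomal protein share. No paired analysis was possible because the labels give no replicate numbers. With 2 WT libraries and at most 17333227 counts in a sham library, few genes under 10 CPM had a 95% interval within 2-fold. Larger differences did not reach the adjusted threshold in the main edgeR fit either, such as -4.27 in 2610507I01Rik and -2.68 in Cpxm2.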

Other observations

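Pseudogenes and other transcripts outside the naming rule had some of the widest gaps. Gm6969 stood at 1.0 and 0.709 CPM in the WT sham libraries and at 54.5, 37.3 and 85.3 CPM in KO sham, while the TAC libraries ran from 0.312 to 51.1 CPM in WT and from 0.400 to 31.5 CPM in those labelled KO. Gm8615 had 93 counts in WT sham and 1 in KO sham. After TAC it reached 1.17 CPM in WT TAC 2 and at most 0.173 CPM elsewhere. Reads of such copies can belong to their parent genes.

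Among genes too low to be tested, Pou4f1, a transcription factor of sensory neurons, had 0 counts in WT sham and 8, 7 and 9 in KO sham.

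Sex-linked transcripts followed the title letters. Xist measured 61.9 CPM in KO sham 2, whose title ends in F, and 0.157 CPM or less in the other 4 sham libraries. The Y-linked gene Eif2s3y measured 14.9 CPM in KO sham 1 against at least 66.3 CPM in the other 3 sham libraries with M, while Ddx3y measured 71.2 CPM in KO sham 1 and 78.0 to 116 CPM in those 3.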
